A study of Mus musculus with 8 samples.

Results

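Expression of 10 genes of phospholipid synthesis and remodelling was examined in mouse liver, namely Chka, Chkb, Pcyt1a, Pcyt2, Cept1, Pisd, Ptdss1, Ptdss2, Lpcat3 and Etnk1. They were taken by gene symbol from a table of 22564 protein-coding genes, and all 10 were found there. RNA sequencing had been performed on 4 liver libraries of untreated db/db mice (db1, db2, db4 and db5) and on 4 liver libraries of untreated C57BL/6 control mice (C5, C6, C7 and C8). The db/db mouse carries a defect of the leptin receptor in every tissue, becomes obese and diabetic, and served in the study as a genetic model of fatty liver. Per the methods of the study, the db/db mice came from another supplier than its male C57BL/6J mice and were younger at purchase. The sources used here give neither the age at collection nor the sex and background strain of the db/db mice. Genotype therefore cannot be told apart from supplier, background or age. Separate animals are not stated for the libraries of a group, so a p-value reads only the spread between libraries, part of which can be technical.

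Phosphatidylcholine and phosphatidylethanolamine are the main phospholipids of liver membranes, and phosphatidylcholine also coats lipid droplets and secreted lipoproteins. Both are made by the parallel branches of the Kennedy pathway, in which choline or ethanolamine is phosphorylated by a kinase, activated with CTP to CDP-choline or CDP-ethanolamine, and joined to diacylglycerol by a phosphotransferase. Hepatocytes have a further route, in which PEMT methylates phosphatidylethanolamine to phosphatidylcholine. Phosphatidylserine is made by exchange of the head group of existing phospholipids and is decarboxylated to phosphatidylethanolamine in mitochondria. The fatty acid chains are afterwards exchanged by phospholipases and lysophospholipid acyltransferases.

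Expression was given as FPKM, the number of sequenced fragments scaled by transcript length and by library size, and a gene was tested when it reached 1 FPKM in at least 4 of the 8 libraries. All 10 members passed this filter, as did 9863 genes in all. In the limma fit over these genes, 4 of the 10 members were higher in db/db livers at an adjusted p under 0.05 (Pcyt1a, Pisd, Cept1 and Lpcat3) and none was lower. Over all tested genes, 16.0% were higher and 11.6% were lower by the same rule. The count of lower members was also 0 at an unadjusted p under 0.05 in limma, and 0 in the exact permutation test. The median difference of the 10 members was 0.22 on the log2(FPKM + 1) scale, against 0.04 over all tested genes. The members were chosen with earlier results of these data known, so these values are no independent evidence about the pathway. The genes that rose act at different steps, the formation of CDP-choline, the last step of the Kennedy pathway, the decarboxylation of phosphatidylserine and the reacylation of lysophospholipids. Among the kinases, the phosphatidylserine synthases and the enzyme that forms CDP-ethanolamine, no member passed the test.

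Some properties of the libraries bear on every value. The sum of FPKM was lower in db/db libraries, at 555661 to 602391, against 641355 to 676884 in control libraries. Absolute depth is unknown in an FPKM table, and relative depth, read from the ratios of genes under 0.3 FPKM, was 0.909 to 1.09 in db/db libraries and 0.815 to 1 in control libraries, with C5 set to 1. Along the first principal component (64.6% of the variance) the groups separated, and along the second (10.3%) db1 stood apart at 27.6, with the other 7 libraries between -14.8 and 13.0. Library db1 was also the lowest of its group for 4 members (Chka, Chkb, Pcyt2 and Lpcat3), and C7 was the highest control library for 3 (Chka, Chkb and Pcyt2) and the lowest for 3 (Cept1, Lpcat3 and Etnk1). Values without these libraries are given beside the members that they move most.

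The label liver was checked against cell type markers. The hepatocyte markers Ttr, Apob, Cps1, Asgr1 and Hnf4a were all well above the filter, whereas Alb was listed at 0 in all 8 libraries, which in this table can be a failed estimate. The summed level of the 6 hepatocyte markers was 5930 to 7852 FPKM in db/db libraries and 9081 to 10090 FPKM in control libraries, and 1 of the 5 tested markers, Ttr, was lower in db/db livers (adjusted p = 0.00681). The sum mostly reads Ttr, at 3803 to 6046 FPKM in db/db libraries and 7012 to 8204 FPKM in control libraries. Apob averaged 998 FPKM in db/db and 999 FPKM in control livers (adjusted p = 0.988). Asgr1 averaged 461 FPKM in db/db and 410.2 FPKM in control livers (adjusted p = 0.279). Hnf4a averaged 100.7 FPKM in db/db and 121.9 FPKM in control livers (adjusted p = 0.0751). Cps1 averaged 334.8 FPKM in db/db and 383.3 FPKM in control livers (adjusted p = 0.448). Of the 5 tested hepatocyte markers, 4 had negative differences and 1 a positive one, with a median of -0.28. Of the markers of other liver cells, Clec4f (1 of 6 macrophage markers), Clec4g (1 of 6 endothelial markers) and Des (1 of 4 tested stellate cell markers) were lower in db/db livers, and no marker passed as higher. Over all tested genes, 11.6% were lower and 16.0% were higher, and 1 gene in a list of 4 to 6 is too few to read beyond these shares. The endothelial marker Lyve1 lay wholly above control in db/db libraries, at 2.52 to 6.05 FPKM against 1.45 to 2.51 FPKM in control libraries, and just missed the threshold (adjusted p = 0.0528). Kdr, also an endothelial marker, went the other way, with a difference of -0.29 that did not pass (adjusted p = 0.103). Of the 6 endothelial markers, 4 had positive and 2 had negative differences. The summed macrophage markers were at 53.9 to 77.0 FPKM in db/db and 69.1 to 121 FPKM in control libraries, and the endothelial markers at 45.2 to 51.4 FPKM in db/db and 55.8 to 66.8 FPKM in control libraries, sums that mostly read Clec4f and Clec4g. Stellate cell markers summed to 87.3 to 111 FPKM in db/db and 87.4 to 104 FPKM in control libraries, and cholangiocyte markers to 35.7 to 53.0 FPKM in db/db and 29.7 to 51.6 FPKM in control libraries. Lymphocyte markers were near the detection limit, at 1.19 to 2.21 FPKM in db/db and 2.28 to 6.92 FPKM in control libraries. In bulk tissue, fewer cells of a type and less RNA per cell cannot be told apart, and the part of cell composition in the results below was not tested.

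The promoters of the 4 members that rose are shown because these genes passed the test. They are the 250 bases before and 50 bases after the first start site listed for each gene in RefSeq on build GRCm38.p6, read 5′ to 3′ on the strand of the gene. Capitals mark matches, on either strand, to the GC box GGGCGG, the CCAAT box CCAAT, the ETS core CCGGAAG and a sterol regulatory element TCACNCCAC. The Pcyt1a window lies at chr16:32430671-32430970 (plus strand), that of Pisd at chr5:32746293-32746592 (minus strand), that of Cept1 at chr3:106547753-106548052 (minus strand) and that of Lpcat3 at chr6:124662854-124663153 (plus strand).
Pcyt1a: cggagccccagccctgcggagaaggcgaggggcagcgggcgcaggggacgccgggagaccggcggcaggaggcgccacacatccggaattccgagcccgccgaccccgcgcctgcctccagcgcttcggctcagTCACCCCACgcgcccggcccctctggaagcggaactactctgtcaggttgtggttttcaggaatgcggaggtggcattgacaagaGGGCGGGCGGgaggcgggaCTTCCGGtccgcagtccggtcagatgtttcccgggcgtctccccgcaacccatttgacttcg
Pisd: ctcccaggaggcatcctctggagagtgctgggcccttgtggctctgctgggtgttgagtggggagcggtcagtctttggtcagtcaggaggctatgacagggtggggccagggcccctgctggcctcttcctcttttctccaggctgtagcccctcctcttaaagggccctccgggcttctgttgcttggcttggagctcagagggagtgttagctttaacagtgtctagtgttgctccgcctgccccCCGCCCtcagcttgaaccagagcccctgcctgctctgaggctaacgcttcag
Cept1: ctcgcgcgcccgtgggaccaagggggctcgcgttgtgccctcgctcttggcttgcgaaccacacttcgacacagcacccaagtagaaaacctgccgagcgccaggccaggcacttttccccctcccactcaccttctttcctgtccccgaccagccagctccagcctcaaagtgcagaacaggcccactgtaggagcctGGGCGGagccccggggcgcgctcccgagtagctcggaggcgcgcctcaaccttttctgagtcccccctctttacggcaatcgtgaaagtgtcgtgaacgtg
Lpcat3: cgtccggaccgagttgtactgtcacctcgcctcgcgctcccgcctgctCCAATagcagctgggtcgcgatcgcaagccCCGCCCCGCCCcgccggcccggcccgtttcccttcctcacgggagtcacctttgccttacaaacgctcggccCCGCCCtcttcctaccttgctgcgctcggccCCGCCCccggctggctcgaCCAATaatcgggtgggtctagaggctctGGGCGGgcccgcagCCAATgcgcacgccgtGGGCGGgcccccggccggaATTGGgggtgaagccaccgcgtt

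The Pcyt1a window held 1 match to the sterol regulatory element, with its first base at position -116 from the listed start, 2 overlapping GC boxes and 1 ETS core. The sterol regulatory element was found in 1.24% of all 32851 promoter windows of the same length and in no other member's window at its first listed start. The Lpcat3 window held 6 GC boxes, of which 2 overlap each other, and 4 CCAAT boxes. The windows of Pisd and Cept1 held 1 GC box each. The Pisd window lies inside the annotated gene, whose start on the minus strand is at base 32785646. At other listed starts the matches differed. Start 2 of Pisd had no GC box but 1 CCAAT box and 1 ETS core. Start 2 of Cept1 had 3 GC boxes, and start 3 had none but 1 CCAAT box. RefSeq windows were matched for 8 of the 10 members, with Pcyt2 and Ptdss1 unmatched, and at the first listed start all 8 held a GC box and 3 held a CCAAT box. The GC box was found in 35.7% and the CCAAT box in 37.4% of all windows. The GC box, the CCAAT box and the ETS core thus occurred in windows of members that rose and of members that did not pass the test. The sterol regulatory element occurred in that of Pcyt1a only. Neither the E-box CACGTG (7.15% of all windows) nor repeats of AGGTCA spaced by 1 or 4 bases (DR1, 0.0396% and DR4, 0.0152%) were matched in these 8 windows. RefSeq lists 3 starts for Pcyt1a, 3 for Cept1 and 2 for Pisd, and FPKM per gene does not show which start was used. A match describes the letters in the window only.

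Choline kinase alpha (Chka) and beta (Chkb) phosphorylate choline and ethanolamine, and ethanolamine kinase 1 (Etnk1) acts on ethanolamine. None of the 3 kinases passed the test. Chka, on chr19:3851773-3894369 (gene positions are on build GRCm38, the same assembly as mm10), was at 4.11, 8.07, 12.4 and 7.99 FPKM in db1, db2, db4 and db5, against 8.17, 6.12, 13.4 and 6.41 FPKM in C5, C6, C7 and C8. The groups overlapped over most of their range, with the lowest value in db1 and the highest in C7. The difference was -0.08 on the log2(FPKM + 1) scale (95% interval -0.73 to 0.57, adjusted p = 0.865), and it changed sign to 0.17 without db1 and to 0.14 without C7.

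Chkb, on chr15:89426360-89429908, was the more highly expressed choline kinase in every library. It was at 18.7, 37.0, 38.7 and 31.7 FPKM in the db/db libraries, against 39.6, 41.1, 44.5 and 29.2 FPKM in the control libraries. Apart from db1, the db/db values lay inside the control range. The difference was -0.32 (95% interval -0.80 to 0.16, adjusted p = 0.306), and it was -0.09 without db1 and -0.02 without db1 and C7. Of the words of 31 bases in Chkb transcripts, 52.1% were unique in the annotation and 45.8% were shared with Gm44502, an annotated gene on the same strand that overlaps it, so the split of reads between them is uncertain. Etnk1, on chr6:143167221-143232307, was at 9.89, 8.53, 7.52 and 10.1 FPKM in the db/db libraries, against 6.91, 7.57, 6.61 and 9.68 FPKM in the control libraries. The groups overlapped, with C6 at the lower and C8 at the upper end of the db/db range, and the difference of 0.21 did not pass (95% interval -0.10 to 0.52, adjusted p = 0.302).

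The step that forms the CDP derivatives has a gene for each branch among the members, of which Pcyt1a passed the test and Pcyt2 did not. Pcyt1a, on chr16:32430921-32475070, encodes the alpha isoform of the enzyme that makes CDP-choline from phosphocholine and CTP, the rate-limiting step of phosphatidylcholine synthesis from choline. It was at 23.4, 20.4, 19.2 and 22.2 FPKM in the db/db libraries, against 11.3, 11.5, 11.4 and 12.4 FPKM in the control libraries. All 4 db/db values lay above all control values, and the spread in each group was small. Pcyt1a averaged 21.3 ± 1.86 FPKM in db/db and 11.7 ± 0.516 FPKM in control livers (SD, n = 4 each), a ratio of means of 1.82. The difference of 0.81 was the largest among the 10 members (SE 0.10, 95% interval 0.59 to 1.03, adjusted p = 0.00024). It passed under all 16 alternative settings, with adjusted p between 0.000148 and 0.00134. On the opposite strand, 7.65% of its exonic bases overlap Slc51a, which was listed at 0 in all 8 libraries. As for Alb, such a 0 can be a failed estimate.

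Pcyt2, on chr11:120610087-120617936, encodes the enzyme that makes CDP-ethanolamine, the corresponding step for phosphatidylethanolamine. It was the most highly expressed member in both groups, at 223, 286, 297 and 345 FPKM in the db/db libraries, against 349, 316, 440 and 286 FPKM in the control libraries. The lowest value was in db1 and the highest in C7, and the remaining values overlapped. The difference of -0.27 did not pass (95% interval -0.63 to 0.09, adjusted p = 0.247). It was -0.15 without db1, likewise -0.15 without C7, and -0.03 without both. Pcyt2 alone made up 56.7% to 63.8% of the summed FPKM of the 10 members in db/db libraries and 65.6% to 73.6% in control libraries, so that the sum mostly reads Pcyt2.

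**Figure D1:**
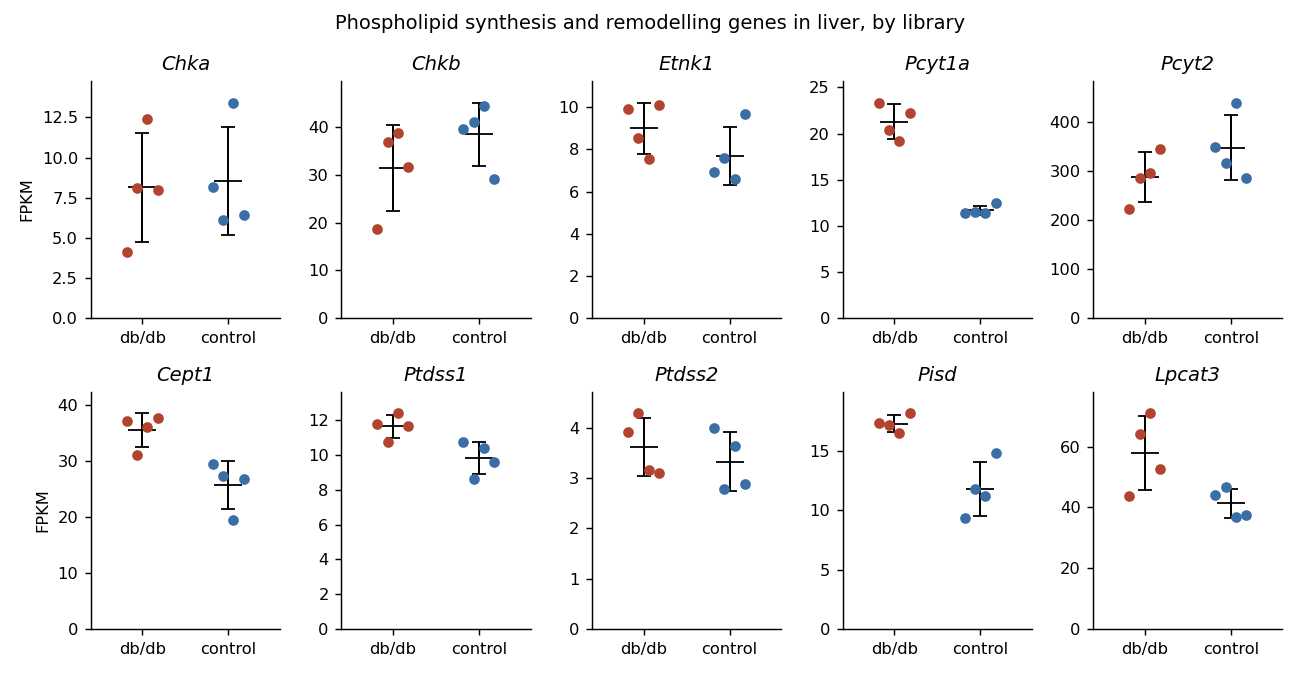
FPKM (vertical axis, linear from 0) of each of the 10 members in the 4 db/db libraries (left, red points) and the 4 control libraries (right, blue points). Horizontal bars are means and whiskers are SD. For Pcyt1a, Cept1 and Pisd all db/db points lie above all control points, with Pcyt1a at 19.2 to 23.4 FPKM in db/db and 11.3 to 12.4 FPKM in control libraries.

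Cept1, on chr3:106502260-106547802, encodes choline/ethanolamine phosphotransferase 1, which catalyses the last step of both branches. It was at 37.2, 31.1, 36.1 and 37.7 FPKM in the db/db libraries, against 29.5, 27.4, 19.5 and 26.8 FPKM in the control libraries. The groups did not overlap, although db2 and C5 were close. The difference was 0.46 (SE 0.13, 95% interval 0.16 to 0.76, adjusted p = 0.028). Without C7, the lowest control library, it was 0.34 (adjusted p = 0.0449). Without db1, db4 or db5 the adjusted p was 0.0574, 0.0598 and 0.0732, and after correction for GC content and length it was 0.059, so the call did not hold under these settings. Of the exonic bases of Cept1, 24.7% overlap Dennd2d on the opposite strand, and the locus given for Cept1 in the table takes in both genes. Dennd2d was at 6.05 to 6.95 FPKM in db/db libraries and 1.98 to 2.67 FPKM in control libraries, a difference of 1.21 (adjusted p = 3.39e-05). The libraries were stranded, but whether strand was used in counting is not given, and the part of Dennd2d reads in the Cept1 values was not tested.

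The other phosphotransferases and PEMT were read beside Cept1. Chpt1, the choline phosphotransferase that acts on the choline branch alone, was at 240, 243, 268 and 236 FPKM in the db/db libraries, against 82.2, 90.1, 70.4 and 64.6 FPKM in the control libraries. The groups lay far apart without overlap, and the difference was 1.68 (95% interval 1.42 to 1.94, adjusted p = 5.04e-06). The study lists Chpt1 and the transporter gene Mfsd2a among genes changed in these mice, so neither is independent evidence of a direction. Selenoi, listed in the table as Ept1, encodes the ethanolamine phosphotransferase and averaged 6.23 ± 0.726 FPKM in db/db and 4.02 ± 0.519 FPKM in control livers (SD, n = 4 each, difference 0.52, adjusted p = 0.0105). Pemt was at 181, 220, 290 and 256 FPKM in the db/db libraries, against 321, 268, 408 and 282 FPKM in the control libraries. Only db4 reached the control range, and the difference of -0.43 did not pass (95% interval -0.81 to -0.05, adjusted p = 0.0856). Without db4 it was -0.54 (adjusted p = 0.0494), and without db1 and C7 it was -0.19 (adjusted p = 0.312). Etnk2, the ethanolamine kinase most abundant here, averaged 126 ± 29.3 FPKM in db/db and 134 ± 45.9 FPKM in control livers, with an adjusted p of 0.856. Pcyt1b did not reach the filter, being at most 0.121 FPKM in every library. In this list of 5 genes, 2 of the 4 tested rose and none fell, against 16.0% and 11.6% of all tested genes.

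Phosphatidylserine synthase 1 (Ptdss1) exchanges the head group of phosphatidylcholine and phosphatidylserine synthase 2 (Ptdss2) that of phosphatidylethanolamine. Ptdss1, on chr13:66932830-66998401, was at 11.8, 10.7, 12.4 and 11.7 FPKM in the db/db libraries, against 10.8, 8.64, 10.4 and 9.59 FPKM in the control libraries. The groups overlapped only by the nearly equal values of db2 and C5, and the difference of 0.23 did not pass (95% interval -0.01 to 0.46, adjusted p = 0.142). Ptdss2, on chr7:141122382-141157606, was the least expressed member, at 3.91, 4.29, 3.15 and 3.11 FPKM in the db/db libraries, against 4.001, 2.79, 3.63 and 2.88 FPKM in the control libraries. Its groups overlapped throughout, with a difference of 0.09 (95% interval -0.22 to 0.41, adjusted p = 0.65).

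Pisd, on chr5:32736301-32785646, encodes phosphatidylserine decarboxylase, the mitochondrial enzyme that makes phosphatidylethanolamine from phosphatidylserine. It was at 17.3, 17.2, 16.5 and 18.2 FPKM in the db/db libraries, against 9.35, 11.8, 11.2 and 14.8 FPKM in the control libraries. The db/db values were nearly equal and all lay above the control values, of which C8 was the closest. Pisd averaged 17.3 ± 0.684 FPKM in db/db and 11.8 ± 2.28 FPKM in control livers (SD, n = 4 each), a difference of 0.53 (SE 0.13, 95% interval 0.24 to 0.82, adjusted p = 0.0123). It passed under all 16 alternative settings, with adjusted p between 0.00408 and 0.0451. Of its words of 31 bases, 78.4% were unique and 18.8% were shared with Gm20671, an annotated gene on the same strand. Gm20671 was listed at or near 0 in all 8 libraries, which can be a failed estimate.

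Lpcat3, on chr6:124663027-124704418, encodes lysophosphatidylcholine acyltransferase 3, which places polyunsaturated fatty acids into phosphatidylcholine and is a known target of the liver X receptors. It was at 43.7, 64.3, 71.0 and 52.8 FPKM in the db/db libraries, against 44.2, 46.7, 36.9 and 37.7 FPKM in the control libraries. The libraries db2, db4 and db5 lay above all control libraries, and db1 lay among them. The difference of 0.46 was just past the threshold (SE 0.15, 95% interval 0.12 to 0.80, adjusted p = 0.0482). It passed under only 4 of 16 alternative settings, with adjusted p between 0.0106 without db1 and 0.122 without db2, and it was 0.0903 after median-ratio scaling. Without db1 the difference was 0.58. In the exact permutation test of the 4 against 4 libraries, 2-sided, p was 0.0857. Of its exonic bases, 10.2% overlap Emg1 on the opposite strand, and Emg1 was lower in db/db livers, at 26.4 to 30.4 FPKM against 34.7 to 49.5 FPKM in control libraries. Of 7 other liver X receptor genes and targets (Abca1, Abcg1, Abcg5, Abcg8, Mylip, Srebf1 and Nr1h3), none passed the test in either direction, at an unadjusted p under 0.05 either. Over all tested genes, 16.0% were higher and 11.6% were lower by the adjusted rule, so 7 genes are too few to read this count as a result. Activity of the receptors was not tested. Srebf1, which encodes a main regulator of fatty acid synthesis, had the smallest adjusted p of the 7. It was at 86.3, 59.2, 52.3 and 31.7 FPKM in the db/db libraries, against 49.7, 31.5, 66.1 and 29.7 FPKM in the control libraries (difference 0.36, adjusted p = 0.424).

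Since 4 libraries were compared with 4, the smallest p that an exact 2-sided permutation test can give is 0.0286. Pcyt1a, Cept1 and Pisd reached it, and these 3 were the members whose groups did not overlap, each with db/db above control. Over all tested genes, the db/db values lay wholly above the control values in 17.3% and wholly below in 12.1%. Ptdss1 had p = 0.0571 in the same exact permutation test, and the other members had 0.0857 or more.

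FPKM is scaled by transcript length, so the levels of the members can be set side by side. In db/db livers the order by mean was Pcyt2 at 287.8, Lpcat3 at 57.9, Cept1 at 35.5, Chkb at 31.6, Pcyt1a at 21.3, Pisd at 17.3, Ptdss1 at 11.7, Etnk1 at 9.004, Chka at 8.15 and Ptdss2 at 3.62 FPKM. Among neighbours in this order, Cept1 and Chkb, Chkb and Pcyt1a, Etnk1 and Chka, and Chka and Ptdss2 overlapped between libraries. In control livers Pcyt2 at 347.7 and Lpcat3 at 41.4 FPKM again came first, followed by Chkb at 38.6, Cept1 at 25.8, Pisd at 11.8, Pcyt1a at 11.7, Ptdss1 at 9.84, Chka at 8.53, Etnk1 at 7.69 and Ptdss2 at 3.33 FPKM. There, Lpcat3 overlapped with Chkb, Chkb with Cept1, Pisd with Pcyt1a, Ptdss1 with Chka, and Chka with Etnk1. Pcyt2 stood at percentile 97.1 of all tested genes in db/db and 97.3 in control livers, and Ptdss2 at percentile 29.8 in db/db and 29.4 in control livers. Pcyt1a stood at percentile 73.8 in db/db and 62.1 in control livers.

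Ratios of 2 members within a library do not depend on a single scale factor per library, and 5 were compared. Settings that rescale genes unequally, such as quantile normalization, can still change them. Pcyt1a over Pcyt2, which sets the CDP-choline step against the CDP-ethanolamine step, was 0.105, 0.0713, 0.0646 and 0.0645 in the db/db libraries, against 0.0325, 0.0364, 0.0259 and 0.0436 in the control libraries. The ratio was higher in every db/db library than in every control library, with a difference of 1.14 in log2 of the ratio (exact permutation p = 0.0286, 2-sided, the smallest possible, adjusted over the 5 ratios 0.143). This difference was 0.97 without db1 and 1.005 without C7. Cept1 over Pcyt1a was 1.59, 1.52, 1.88 and 1.70 in the db/db libraries, against 2.60, 2.38, 1.71 and 2.15 in the control libraries. It was lower in db/db apart from C7, which lay within the db/db range (difference -0.39, exact permutation p = 0.0571, adjusted 0.143). Pisd over Ptdss2 averaged 4.88 ± 0.818 in db/db and 3.69 ± 1.24 in control livers (SD, n = 4 each, exact permutation p = 0.171, adjusted 0.285). Chka over Chkb averaged 0.253 ± 0.0481 in db/db and 0.219 ± 0.0628 in control livers (exact permutation p = 0.371, adjusted 0.464, n = 4 each). Ptdss1 over Ptdss2 averaged 3.30 ± 0.664 in db/db and 2.99 ± 0.278 in control livers (exact permutation p = 0.486, adjusted 0.486, n = 4 each). None of the 5 passed after adjustment, and with 4 against 4 libraries an adjusted p under 0.05 would need the smallest p in at least 3 of the 5.

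**Figure D2:**
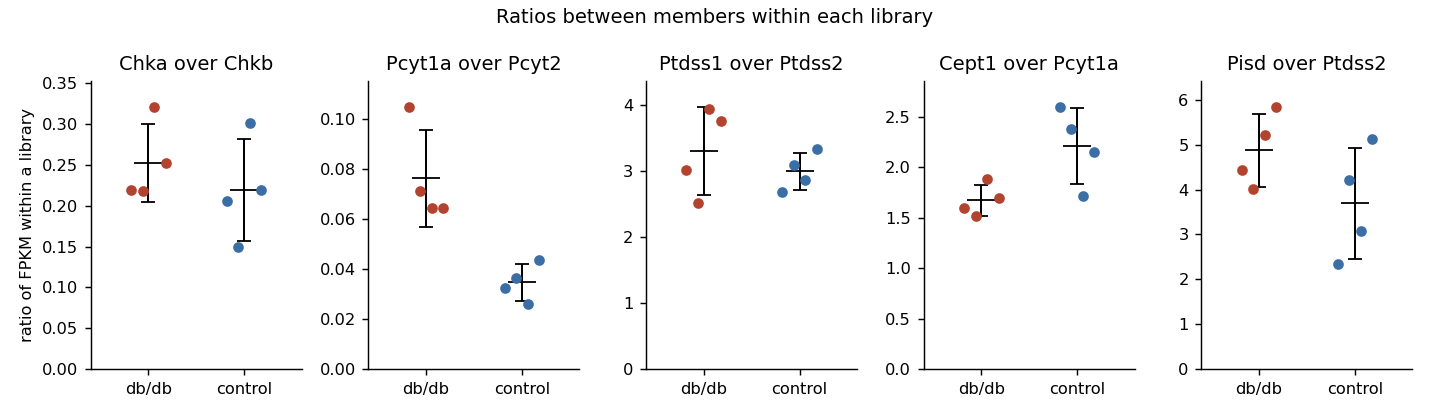
Ratio of the FPKM of 2 members within each library (vertical axis, linear from 0) in the 4 db/db libraries (left, red) and the 4 control libraries (right, blue), with means (bars) and SD (whiskers). Pcyt1a over Pcyt2 lies between 0.0645 and 0.105 in db/db and between 0.0259 and 0.0436 in control libraries, without overlap, and the other 4 ratios overlap.

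The other genes of phospholipid metabolism were read from 5 lists of 48 genes in all, of which 47 were in the table and 36 were tested. Of these, 15 rose (41.7%) and 2 fell (5.56%), against 16.0% and 11.6% of all tested genes. The median difference was 0.35, against 0.04 over all tested genes. Of the 15, 8 came from the list of choline and ethanolamine supply and use. Chpt1 and Mfsd2a, which the study lists as changed in these mice, are counted here too. The lists were chosen with earlier results of these data known, so these shares are no independent evidence about the pathway. In acidic phospholipid synthesis, which leads through CDP-diacylglycerol to phosphatidylinositol and cardiolipin, 2 of 5 tested genes rose and none fell. Cds2, a CDP-diacylglycerol synthase, averaged 10.3 ± 0.845 FPKM in db/db and 6.79 ± 0.142 FPKM in control livers (difference 0.53, adjusted p = 0.00335). Crls1, cardiolipin synthase, averaged 36.8 ± 6.72 FPKM in db/db and 23.3 ± 2.66 FPKM in control livers (difference 0.63, adjusted p = 0.00806). Neither gene's groups overlapped. Tamm41, the mitochondrial CDP-diacylglycerol synthase, had a difference of 0.46 with an adjusted p of 0.101 and passed under 4 of 16 alternative settings, among them without C7 (difference 0.65, adjusted p = 0.0111). Pgs1 and Cdipt had differences of 0.07 and -0.03 with adjusted p of 0.749 and 0.872.

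Among the other acyl remodelling enzymes, 4 of 9 were expressed enough to be tested. Of these, 1 rose (25%, against 16.0% of all tested genes) and none fell. Lclat1, which remodels cardiolipin and phosphatidylinositol, averaged 11.2 ± 1.42 FPKM in db/db and 7.59 ± 0.342 FPKM in control livers (difference 0.49, adjusted p = 0.00833). Lpgat1, Taz (tafazzin) and Mboat7 did not pass, with differences of 0.28, -0.20 and -0.07. The other lysophosphatidylcholine acyltransferases Lpcat1, Lpcat2 and Lpcat4 were under 1.05 FPKM in every library, so Lpcat3 was by far the most abundant Lpcat transcript in both groups. Of 14 tested phospholipases and turnover genes, 2 rose and 2 fell (14.3% each). These shares were near those of all tested genes, 16.0% and 11.6%. Pla2g15, the lysosomal phospholipase A2, was at 10.2, 10.3, 11.9 and 8.51 FPKM in the db/db libraries, against 3.47, 3.95, 5.23 and 4.23 FPKM in the control libraries (difference 1.11, adjusted p = 0.00025). Lypla1, a lysophospholipase and thioesterase, averaged 83.3 ± 7.53 FPKM in db/db and 49.4 ± 12.5 FPKM in control livers (difference 0.78, adjusted p = 0.00872). Pla2g12a, a secreted phospholipase A2, averaged 6.33 ± 0.486 FPKM in db/db and 11.6 ± 2.68 FPKM in control livers (difference -0.76, adjusted p = 0.00593). Gde1, a glycerophosphodiester phosphodiesterase, averaged 41.2 ± 3.86 FPKM in db/db and 55.2 ± 9.24 FPKM in control livers (difference -0.40, adjusted p = 0.0437), and it passed under only 5 of 16 alternative settings. Pla2g6, Pnpla8 and Gpcpd1 did not pass, with differences of 0.51, 0.40 and -0.52. Without db1, Pla2g6 had a difference of 0.68 and Gpcpd1 one of -0.81, and both passed (adjusted p = 0.0103 and 0.0066). Without C7, the difference of Pnpla8 was 0.25 (adjusted p = 0.102).

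In the list of choline and ethanolamine supply and use, 8 of 9 tested genes rose (88.9%) and none fell, with a median difference of 0.80. Over all tested genes, 16.0% rose and 11.6% fell. The 8 include Mfsd2a, which the study lists as changed in these mice. The lists were chosen with earlier results of these data known, so this share is no independent evidence about the pathway. The list holds transporters and enzymes that act in opposite directions on the precursors, so its count gives no direction of flux. Slc44a1, a choline transporter, was at 5.44, 6.29, 9.59 and 8.53 FPKM in the db/db libraries, against 3.73, 3.23, 2.42 and 2.41 FPKM in the control libraries (difference 1.09, adjusted p = 0.0015). Slc44a3, of the same family, averaged 3.68 ± 0.716 FPKM in db/db and 1.85 ± 0.529 FPKM in control livers (difference 0.72, adjusted p = 0.00824). Mfsd2a, a transporter of lysophosphatidylcholine, was at 71.0, 66.6, 51.6 and 56.6 FPKM in the db/db libraries, against 9.29, 10.9, 6.62 and 7.52 FPKM in the control libraries (difference 2.71, adjusted p = 1.26e-06).

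The genes of choline oxidation to betaine and of its use were also higher. Chdh, choline dehydrogenase, averaged 31.3 ± 1.02 FPKM in db/db and 23.8 ± 2.35 FPKM in control livers (difference 0.39, adjusted p = 0.016), and without C5 its adjusted p was 0.0519. Aldh7a1, which oxidises betaine aldehyde, averaged 331.9 ± 40.8 FPKM in db/db and 217 ± 6.41 FPKM in control livers (difference 0.60, adjusted p = 0.00255). Bhmt, which transfers a methyl group of betaine to homocysteine, was at 4026, 4534, 3856 and 5187 FPKM in the db/db libraries, against 1060, 1298, 1240 and 1024 FPKM in the control libraries (difference 1.93, adjusted p = 5e-06). Bhmt shares 27.1% of its words of 31 bases with its copy Gm5096, which was at 333 to 575 FPKM in db/db and 62.0 to 79.8 FPKM in control libraries, so the split between the pair is uncertain. On the side of phosphoethanolamine, Etnppl, which breaks it down, was at 242, 114, 94.8 and 135 FPKM in the db/db libraries, against 44.1, 48.7, 53.0 and 49.2 FPKM in the control libraries (difference 1.48, adjusted p = 0.00117). Phospho1, a phosphatase of phosphocholine and phosphoethanolamine, averaged 4.26 ± 0.948 FPKM in db/db and 2.02 ± 0.529 FPKM in control livers (difference 0.80, adjusted p = 0.00581), but 87.1% of its words are shared with the overlapping gene Zfp652, which had an adjusted p of 0.284. Sgpl1, which yields phosphoethanolamine from sphingosine phosphate, had a difference of 0.30 and did not pass (adjusted p = 0.0572).

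**Figure D3:**
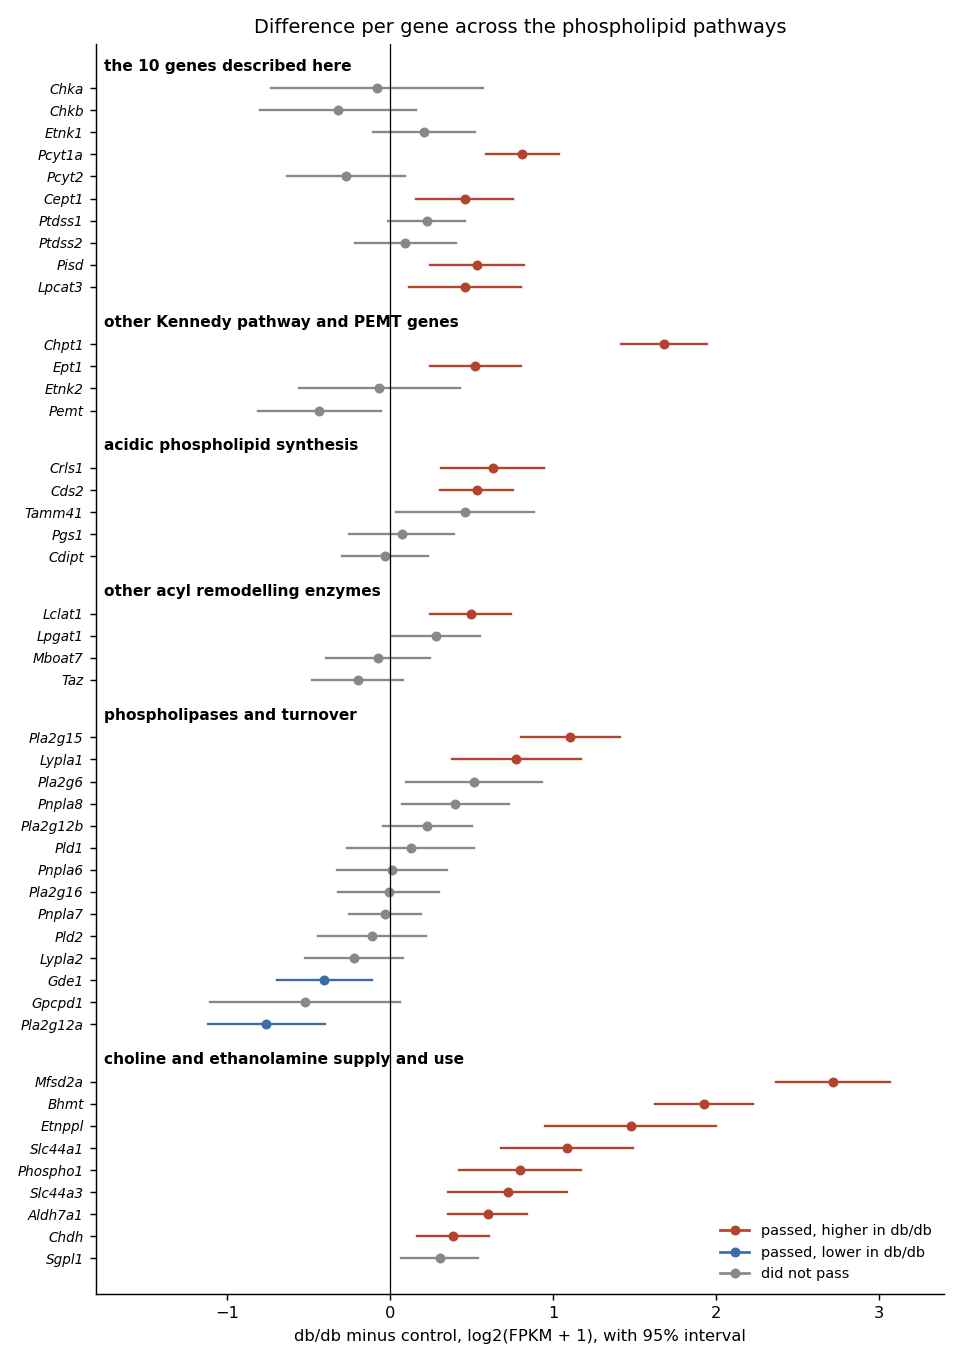
Difference between db/db and control livers in log2(FPKM + 1) (horizontal axis) for the 10 members and the 36 tested genes of the 5 other phospholipid lists, with points for the estimate and lines for the 95% interval of the limma fit. Red genes passed the test and were higher in db/db, blue genes passed and were lower, and grey genes did not pass. Pcyt1a has the largest difference of the members at 0.81, below Chpt1 at 1.68 and Mfsd2a at 2.71. Ept1 is the table's symbol for Selenoi.

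The calls of the 4 members that rose did not rest equally on the data. Pcyt1a and Pisd passed under each of the 16 alternative settings, Cept1 under 11 and Lpcat3 under 4. All 4 differences kept their sign under every one of these settings, with ranges of 0.70 to 0.86 for Pcyt1a, 0.44 to 0.64 for Pisd, 0.31 to 0.53 for Cept1 and 0.36 to 0.58 for Lpcat3. Leaving out db1 and C7 together gave adjusted p of 0.00134 for Pcyt1a, 0.0451 for Pisd, 0.0692 for Cept1 and 0.0219 for Lpcat3.

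**Figure D4:**
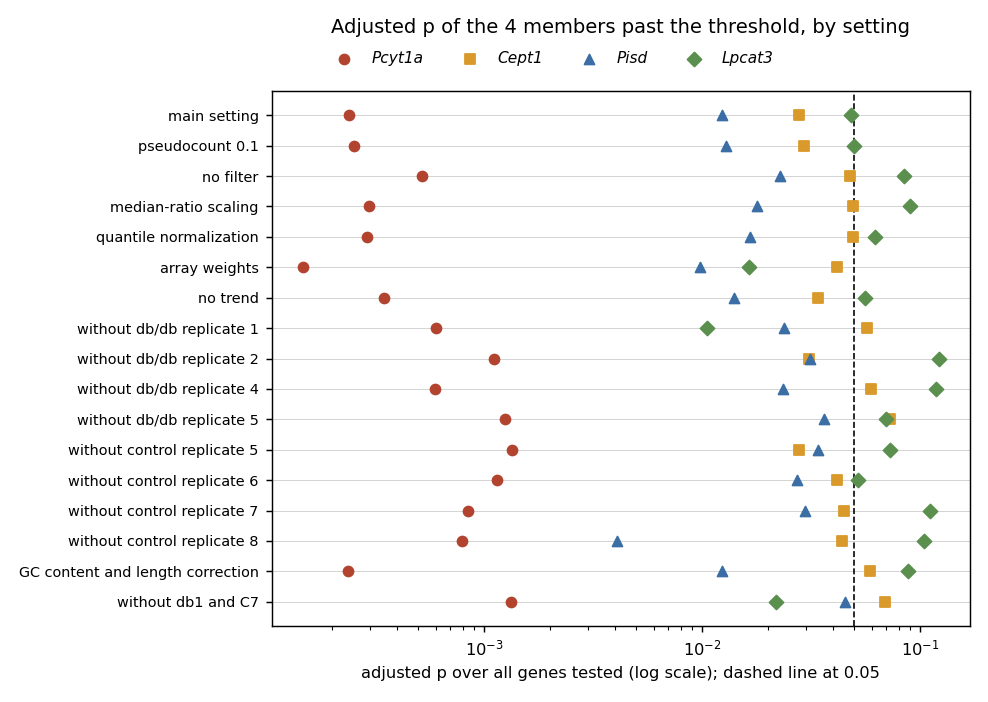
Adjusted p over all tested genes (horizontal axis, log scale) of Pcyt1a, Cept1, Pisd and Lpcat3 under the setting reported here and 16 alternatives (vertical axis), with the threshold of 0.05 as a dashed line. Pcyt1a stays between 0.000148 and 0.00134, Pisd stays below the line, and Cept1 and Lpcat3 cross it.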

How the data were processed

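Stranded libraries were made from liver RNA after ribosomal RNA had been removed (per the labels). The submitters' processing notes name cutadapt 1.9.3 for trimming, HISAT2 2.0.4 for alignment, build mm10, and Cufflinks and Cuffdiff, with no version for either. The authors deposited FPKM for every gene in each library, unpooled. No source used here gives the annotation release or says whether strand entered the counting.

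Groups were taken from the sample labels. Log2(FPKM + 1) was compared with limma 3.58.1 in R 4.3.3 (empirical Bayes with trend, 2-sided, 4 db/db against 4 control libraries), over genes that reached 1 FPKM in 4 or more libraries, with Benjamini-Hochberg adjustment over all 9863 tested genes. Differences understate the change of weakly expressed genes. Ratios within a library were compared by exact permutation. The fit was tested on simulated data. Alternatives were a pseudocount of 0.1, no filter, median-ratio scaling, quantile normalization, array weights, no trend, and leaving out each library. Correction for GC content and length, and leaving out db1 with C7, were chosen after the data were seen. The members and lists were chosen with earlier results of these data known. Named were all members and, from each other list, the genes that passed and up to 3 that did not, by adjusted p. Gene positions are those of the GENCODE annotation on GRCm38 (mm10), and 31-base words were compared over its transcripts.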

Additional observations from a re-analysis of the deposited data

Results flagged for a closer look

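In 4 of the 78 groups of 4 libraries examined (2 for each of 39 named genes), 1 library lay far from the other 3 by Dixon's test at the 95% level, which chance alone gives in about 1 group in 20. Pcyt1a was at 12.4 FPKM in C8, against 11.3 to 11.5 FPKM in the other control libraries, and this value still lay well below the lowest db/db value of 19.2 FPKM. Pgs1 was at 4.24 FPKM in db5, against 3.08 to 3.19 FPKM in the other db/db libraries. Slc44a3 was at 4.74 FPKM in db2, against 3.22 to 3.44 FPKM in the other db/db libraries. Gpcpd1, a glycerophosphocholine phosphodiesterase, was at 62.9 FPKM in db1, against 25.6 to 31.7 FPKM in the other db/db libraries. Without db1, Gpcpd1 was lower in db/db livers, with a difference of -0.81 in log2(FPKM + 1) (limma, adjusted p = 0.0066), against -0.52 (adjusted p = 0.167) with all libraries.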

How the results depend on the processing

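Each of 39 named genes was fitted under 16 alternatives to the reported setting, a pair of which (GC content with length, and db1 with C7) was chosen after the data were seen. Of the 10 members, 4 rose in the reported setting, and 3 under no filter, median-ratio scaling, quantile normalization or no trend, where Lpcat3 was lost. The count was 2 after correction for GC content and length, and 2 to 3 when each library was left out in turn. The 4 members were down to 3 by the exact permutation test. No member was called lower under any of these. Of the phospholipases and turnover genes, 1 instead of 2 fell without a filter, where Gde1 was lost. The other list counts did not change under median-ratio scaling, a pseudocount of 0.1 or no filter, the only alternatives for which lists were counted. Single genes of the lists changed side under others. After correction for GC content and length, Gde1 was lost (adjusted p = 0.221) and Tamm41, Pla2g6, Gpcpd1 and Sgpl1 were gained (0.0243, 0.0454, 0.0381 and 0.0438), and the same 4 were gained with array weights.

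Differences that passed kept their sign under all alternatives, and those that reversed had not passed. Chka reversed to 0.14 with array weights and 0.39 without db1 and C7, and ranged from -0.291 to 0.174 when each library was left out. Cdipt reversed to 0.0126 with array weights, 0.0810 after correction for GC content and length and 0.0679 without db1 and C7 (left-out range -0.102 to 0.0482). Mboat7 reversed to 0.10 after that correction (-0.158 to 0.0162), Etnk2 to 0.00090 without db1 and C7 (-0.21 to 0.147), and Pgs1 only when a library was left out (-0.0386 to 0.126). The cause was not tested.

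Median-ratio scaling moved the median of all tested genes by 0.0471 in log2, and it gave 1375 higher and 1337 lower genes, against 1582 and 1147 in the reported setting. No paired analysis was possible because the groups share only replicate number 5, and the numbers name no common animal or batch. Absolute depth is unknown, so no counting error can be set beside weakly expressed genes such as Ptdss2.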
